A study of Drosophila melanogaster with 11 samples.

Results

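The adult fat body of PGAM5 null flies was profiled after dOTC (ΔOTC), a deletion form of human ornithine transcarbamylase that misfolds in the mitochondrial matrix, had been induced in larval life only. The comparison asks which transcripts of the adult tissue still differ once the inducer has been withdrawn, in animals that lack PGAM5. It rests on 1 library of PGAM5 null adults that had been given RU486 as larvae and 1 library of PGAM5 null adults that had not. All genes with 10 FPKM or more in either library were described, which gave 4884 of the 15603 genes in the table, or 31.3%. FPKM is the number of sequenced fragments scaled to transcript length and to library size. Of the 4884 genes, 4183 reached 10 FPKM in both libraries, 378 only in the library with RU486 and 323 only in the library without it. At the edge of the rule, RPA2 was inside with a higher value of 10.01 FPKM and CG15706 was outside with 9.997 FPKM.

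The PGAM5 null RU486 flies carried the daughterless GeneSwitch driver and UAS-dOTC on a PGAM5 null background and received 200 µM RU486 in the larval food. The PGAM5 null flies without RU486 had the same genotype and plain food. The WT RU486 flies and the WT flies without RU486, with the driver and UAS-dOTC but a functional PGAM5 gene, form a second pair that shares no library with the first and is given beside it. GeneSwitch is a form of the Gal4 activator that needs the steroid RU486, and the daughterless promoter drives it in most tissues, so dOTC was not restricted to the fat body. Each fat body library pooled 15 animals. The adult libraries came from females 7 days old, after RU486 or plain food in larval life. The larval libraries, used near the end for comparison, came from animals sampled as larvae. No fat body library of the 11 samples had RU486 without UAS-dOTC, so an effect of RU486 itself and an effect of dOTC cannot be told apart. Every condition was 1 library, no replicate spread exists, and every difference below compares 2 libraries. Bounds in parentheses are exact 95% intervals of a ratio that cover the counting error of these 2 libraries only.

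PGAM5 is a phosphatase of the mitochondrial membranes that acts on proteins rather than on sugar phosphates, and it has been linked to mitochondrial quality control, to cell death and to stress kinase signalling. Misfolded protein in the mitochondrial matrix is known to induce matrix chaperones and proteases such as Hsp60, the programme called the mitochondrial unfolded protein response. Hsp70, Hsp68 and the small heat shock proteins are known to answer to misfolded protein in the cytosol and nucleus, through the transcription factor Hsf. The study also describes some chaperone genes as targets of the transcription factor FoxO. The fat body joins the functions of liver and adipose tissue, stores fat and glycogen, and secretes yolk proteins and antimicrobial peptides into the hemolymph.

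The target gene accorded with the labels. Pgam5 was listed at 0 FPKM in the PGAM5 null RU486 library and at 0.841 FPKM in the PGAM5 null library without RU486, against 10.1 FPKM in the WT RU486 library and 11.8 FPKM in the WT library without RU486. The table's header calls its samples larval, whereas its name and the labels call them adult. Yp1, a yolk protein of adult females, stood at 41899 and 25125 FPKM in the PGAM5 null libraries with and without RU486, and at 0.184 and 0 FPKM in the corresponding libraries of the larval table, which goes with the adult label. About 6190000 fragments lay behind the RU486 library and 6660000 behind the library without RU486, so that 10 FPKM on a transcript of 1 kb stood for 50.8 and 54.5 fragments. The adult libraries differed in markers of neighbouring tissues. The 28 eggshell and germline genes summed to 5616 FPKM in the PGAM5 null RU486 library, 212 FPKM in the PGAM5 null library without RU486, 132 FPKM in the WT RU486 library and 103 FPKM in the WT library without RU486. The 39 gut digestive enzyme genes summed to 746, 131, 95.3 and 8820 FPKM in the same 4 libraries. The PGAM5 null RU486 library thus stood apart by ovary markers, and the WT library without RU486 by gut markers. In bulk tissue, fewer cells of a type and less RNA per cell cannot be told apart.

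Most transcripts lay close to each other in the PGAM5 null pair. The median ratio, RU486 over no RU486, was 0.978, and 85.7% of the 4884 genes lay within 1.5-fold. At least 2-fold higher with RU486 were 214 genes, 4.38% of all, and at least 2-fold lower were 215 genes, 4.40%. Of the 214 higher genes, 160 were below 10 FPKM without RU486, and of the 215 lower genes, 172 were below 10 FPKM with RU486. A gene that enters through 1 library only is prone to a large ratio. Among the 4183 genes at 10 FPKM in both libraries, 54 were at least 2-fold higher and 43 at least 2-fold lower.

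**Figure D1:**
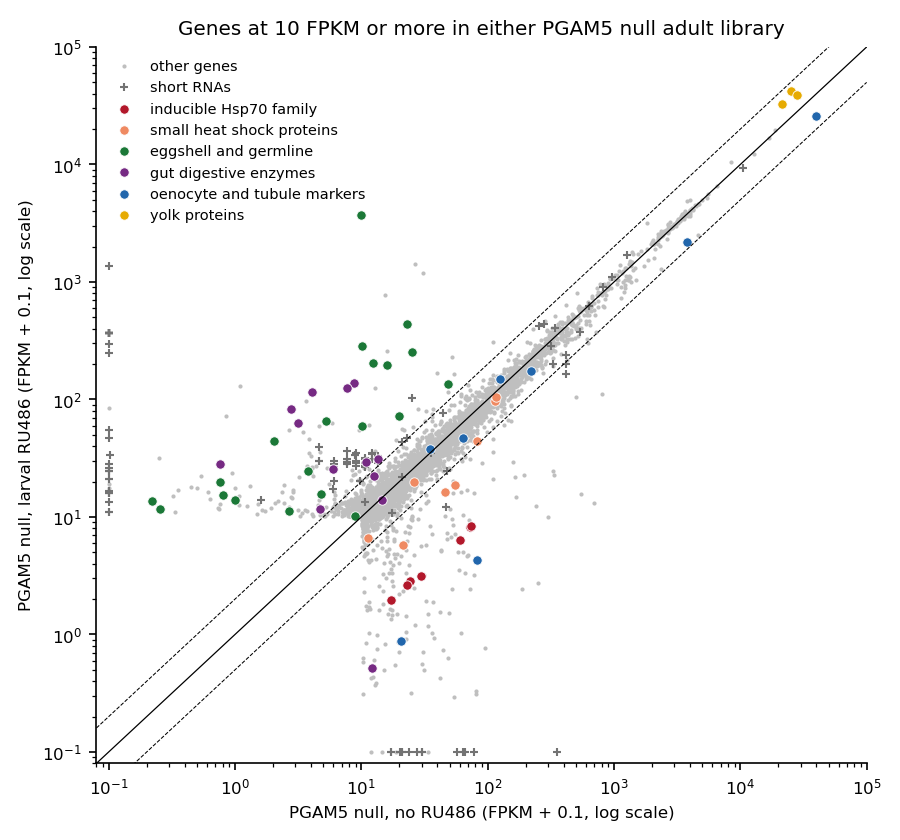
Each point is 1 of the 4884 genes, with its FPKM in PGAM5 null adults with larval RU486 on the y axis and in PGAM5 null adults without RU486 on the x axis, both plus 0.1 and on log scales. The solid line marks equal values and the dashed lines 2-fold, and 19 of the 20 eggshell and germline genes lie above the upper dashed line, with gcl between the lines, while all 7 inducible Hsp70 genes lie below the lower one.

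A large part of the higher genes were short RNAs. There were 108 members that are transfer, small nucleolar or small nuclear RNA or microRNA genes or whose longest transcript is under 300 bases, and of these 73 were at least 2-fold higher and 17 at least 2-fold lower. Among the 20 highest ratios, 17 belonged to such genes. Fragments averaged about 180 bases in the RU486 library, so a few fragments on a shorter gene give a large FPKM. For example, 13 transfer RNA genes carried the same 371 FPKM with RU486 and were all listed at 0 without it, and snoRNA:Me28S-G2703c was listed at 1361 FPKM with RU486 and at 0 without it. All 14 of these genes were also listed at 0 in both WT libraries. Without the short RNAs, 4776 genes remained. Of those, 141 (2.95%) were at least 2-fold higher and 198 (4.15%) at least 2-fold lower. Counts for a gene list keep its short members, which were 1 of the 11 antimicrobial peptides (Mtk) and 4 of the 16 immune-induced molecules.

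The inducible Hsp70 family was lower throughout in PGAM5 null adults with larval RU486. These ATP-driven chaperones are nearly silent without stress and bind misfolded cytosolic proteins. All 7 of the 7 members were at least 2-fold lower, where 4.40% of all 4884 genes were. Their median log2 ratio was -2.93 on the FPKM + 1 scale, beside -0.03 over all 4884 genes. Hsp68 had 6.30 FPKM with RU486 and 60.7 FPKM without it, a ratio of 0.104 (0.0815 to 0.131). Hsp70Aa had 8.16 FPKM with RU486 and 72.9 FPKM without it, a ratio of 0.112 (0.0911 to 0.136). The 2 libraries thus differed by about an order of magnitude for both genes, with 80 and 829 estimated fragments behind Hsp68.

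The other 5 Hsp70 copies were lower by nearly the same factor. Hsp70Ab had 8.33 FPKM with RU486 and 74.4 FPKM without it. Hsp70Bb had 3.03 FPKM with RU486 and 29.8 FPKM without it. Hsp70Bbb, Hsp70Bc and Hsp70Ba lay between 1.88 and 2.73 FPKM with RU486, against 17.1 to 24.0 FPKM without it. The copies are nearly identical in sequence and their reads may have been split between them, so the 6 Hsp70 values are not independent of each other, whereas Hsp68 is a more distant relative. In the WT pair all 7 genes stood the other way, where 1.09% of the same 4776 genes were at least 2-fold higher with RU486. Hsp68 had 658 FPKM in the WT RU486 library and 23.1 FPKM in the WT library without RU486, and Hsp70Aa had 501 FPKM in the WT RU486 library and 37.9 FPKM in the WT library without RU486. The PGAM5 null RU486 library was the lowest of the 4 adult libraries for each of the 7 genes, the WT RU486 library was the highest, and the PGAM5 null library without RU486 stood above the WT library without RU486.

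**Figure D2:**
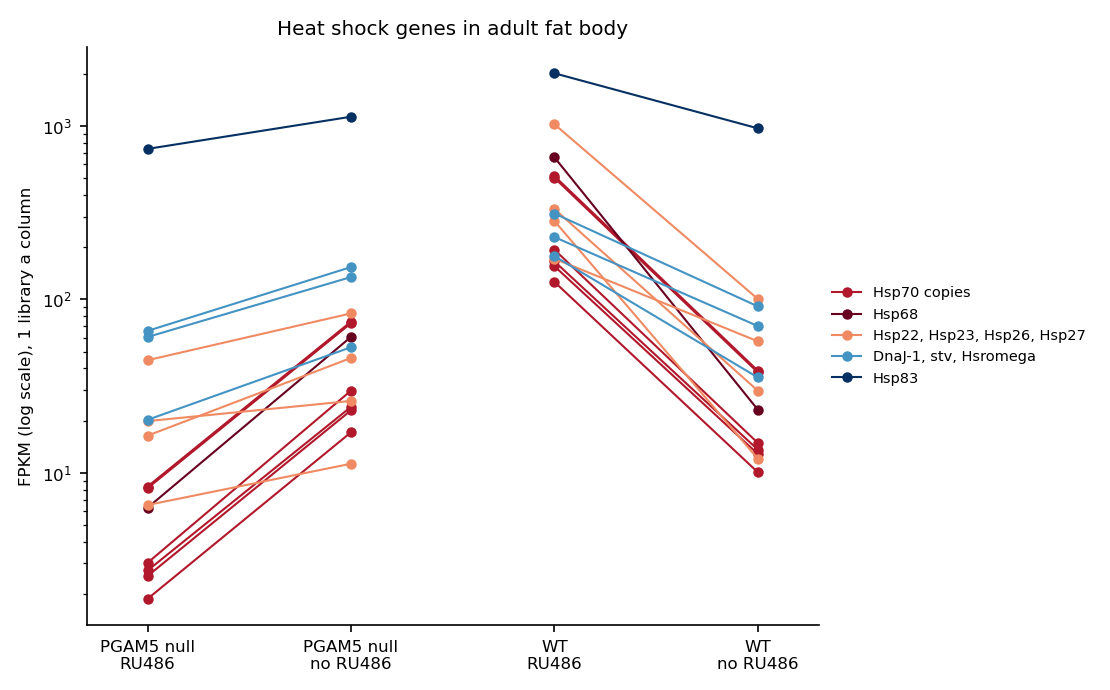
FPKM on a log scale for 15 heat shock and co-chaperone genes, with 1 adult library in each column and a line joining the library with RU486 to that without it within a genotype. In PGAM5 null adults every line is lower at the RU486 end, for Hsp68 at 6.30 against 60.7 FPKM, whereas in WT adults every line is higher there, for Hsp68 at 658 against 23.1 FPKM.

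The small heat shock proteins, ATP-independent chaperones that hold unfolding proteins, were all below a ratio of 1. Of 8 members, 3 were at least 2-fold lower (4.40% of all 4884 genes were) and none was at least 2-fold higher. Their median log2 ratio was -0.79. Hsp22, which is imported into mitochondria, had 16.4 FPKM with RU486 and 45.9 FPKM without it, a ratio of 0.357 (0.290 to 0.437). CG4461 had 5.66 FPKM with RU486 and 21.2 FPKM without it. CG7409 had 18.6 FPKM with RU486 and 55.3 FPKM without it. These 2 genes encode alpha-crystallin type proteins and did not share the pattern of the WT pair. Their ratios there were 1.33 for CG4461 and 0.873 for CG7409, with intervals that include 1.

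Hsp26, a cytosolic small heat shock protein, had 44.6 FPKM with RU486 and 82.95 FPKM without it, a ratio of 0.537 (0.456 to 0.633). Hsp23 had 6.52 FPKM with RU486 and 11.3 FPKM without it. Hsp27, a nuclear member, had 19.8 FPKM with RU486 and 25.9 FPKM without it. These 3 genes were thus lower by less than 2-fold. CG14207 and l(2)efl, the lethal(2) essential for life gene, had ratios of 0.847 and 0.889, and the interval of l(2)efl (0.772 to 1.026) includes 1. In WT adults Hsp22, Hsp23, Hsp26 and Hsp27 were 2.99-fold to 23.5-fold higher with RU486.

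Of all 4884 genes, 4.40% were at least 2-fold lower and 4.38% at least 2-fold higher. Of 23 cytosolic chaperones and co-chaperones, 3 were at least 2-fold lower and none was at least 2-fold higher. They were stv (starvin), a BAG-domain partner of Hsp70, DnaJ-1, a J-domain partner of Hsp70, and Hsromega, a noncoding RNA induced by stress. The first, stv, had 20.2 FPKM with RU486 and 52.9 FPKM without it, a ratio of 0.382 (0.333 to 0.436). DnaJ-1 had 65.8 FPKM with RU486 and 153 FPKM without it, a ratio of 0.429 (0.393 to 0.466). Hsromega had 60.7 FPKM with RU486 and 134 FPKM without it, a ratio of 0.451 (0.418 to 0.486). All 3 were above 3-fold higher with RU486 in WT adults. Hsp83, the fly Hsp90, had 737 FPKM with RU486 and 1129 FPKM without it, a ratio of 0.652. The heat shock factor Hsf itself had 15.1 FPKM with RU486 and 15.7 FPKM without it. The constitutive Hsc70-4 had a ratio of 0.891, and the 8 subunits of the chaperonin TRiC that were listed had ratios of 1.05 to 1.33.

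Of the 198 longer genes that were lower, 15 were at least 2-fold higher in WT adults (1.09% of the 4776 genes were so), and 11 of the 15 were on the heat shock and chaperone lists. The other 4 were CG10154, CG7130, Pbprp2 and dro5. Across the 4548 genes at 10 FPKM or more in a library of both pairs, the log2 ratios of the 2 genotypes had a Pearson r of 0.09 and a Spearman rho of -0.04, and without short RNAs r was 0.06 over 4492 genes. Genes within 2 pairs of libraries are not independent points, and this is a description.

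Mitochondrial and endoplasmic reticulum chaperones showed no such shift. Of 17 mitochondrial chaperones and proteases, 0 were at least 2-fold higher or lower, with a median log2 ratio of 0.12. Hsp60, the matrix chaperonin, had 156.2 FPKM with RU486 and 129 FPKM without it, a ratio of 1.21 (1.14 to 1.29). Tom40, the import channel of the outer membrane, had 46.6 FPKM with RU486 and 35.3 FPKM without it, a ratio of 1.32 (1.15 to 1.51). Both were higher beyond counting error, and by less than 1.5-fold. CG9588 stood lowest on this list with 24.9 FPKM with RU486 and 33.4 FPKM without it. Of 16 endoplasmic reticulum chaperones and sensors, 0 were at least 2-fold higher or lower. Ire1, the sensor kinase and nuclease of that compartment, had 25.5 FPKM with RU486 and 41.5 FPKM without it, a ratio of 0.615 (0.556 to 0.680).

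Genes of egg formation were higher with RU486. Of 20 eggshell and germline genes at 10 FPKM or more, 19 were at least 2-fold higher with RU486 and 0 at least 2-fold lower. Over all 4884 genes, 4.38% were higher and 4.40% lower. The median log2 ratio of the list was 3.37, beside -0.03 over all 4884 genes. The rule of 10 FPKM admitted 12 of the 20 through the RU486 library only, and the median was 2.801 over the 26 genes at 1 FPKM or more and 1.99 over the 20 with 5 FPKM added in place of 1. Cp15, a chorion protein secreted by follicle cells late in oogenesis, had 3683 FPKM with RU486 and 9.87 FPKM without it, a 373-fold ratio (246 to 595). The WT libraries with and without RU486 had 4.596 and 7.69 FPKM of Cp15. The vitelline membrane gene Vm26Aa had 440 FPKM with RU486 and 22.8 FPKM without it, a 19.3-fold ratio (15.3 to 24.5). Its neighbour Vm26Ab had 283 FPKM with RU486 and 10.1 FPKM without it, and Vm34Ca had 206 FPKM with RU486 and 12.2 FPKM without it. These genes encode the inner eggshell layer, so both layers of the shell were represented.

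Germline genes followed. The posterior determinant osk (oskar) had 44.2 FPKM with RU486 and 1.95 FPKM without it. The germline RNA-binding gene orb had 19.9 FPKM with RU486 and 0.665 FPKM without it. CycB, the mitotic cyclin B, had 59.7 FPKM with RU486 and 10.005 FPKM without it. The exception on the list was gcl (germ cell-less), with a ratio of 1.16 (0.914 to 1.48). RpS5b, a ribosomal protein paralogue enriched in the ovary, had 125 FPKM with RU486 and 12.7 FPKM without it, while the other 84 cytosolic ribosomal protein genes had ratios of 0.895 to 1.20. In the WT libraries with and without RU486, RpS5b had 9.01 and 42.4 FPKM. In the PGAM5 null RU486 library 27 of the 28 eggshell and germline genes had their highest value of the 4 adult libraries. That count would take in a gene listed at 0 in all 4, and 1 of the 28 was at 0 in the PGAM5 null RU486 library. The part of ovary tissue in the differences of this library was not tested.

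Other genes are given here by values alone, since they were chosen after these were seen. The yolk receptor gene yl (yolkless) had 55.3 FPKM with RU486 and 2.60 FPKM without it. The maternal thioredoxin gene dhd (deadhead) had 169 FPKM with RU486 and 40.0 FPKM without it. CG1678 and CG16826 had 1410 and 1194 FPKM with RU486, against 26.7 and 30.9 FPKM without it. Of the 20 highest ratios the 2 that belonged to neither short RNAs nor the eggshell were CG32642, with 31.6 FPKM with RU486 and 0.150 FPKM without it, and CG13947, with 130 FPKM with RU486 and 0.992 FPKM without it. Both were listed at 0 in the WT libraries.

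Yolk proteins, which the fat body itself makes for the egg, were higher by less than 2-fold. Yp1 had 41899 FPKM with RU486 and 25125 FPKM without it, a ratio of 1.67 (1.66 to 1.68). Yp2 had 38916 FPKM with RU486 and 28361 FPKM without it, a ratio of 1.37. Yp3 had 32901 FPKM with RU486 and 21221 FPKM without it, a ratio of 1.55. Follicle cells make yolk proteins too, and the PGAM5 null RU486 library held the highest level of the 4 for all 3 genes, with sums of 113715, 74707, 63032 and 61430 FPKM in the PGAM5 null libraries with and without RU486 and the WT libraries with and without RU486.

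Of 13 digestive enzymes of the midgut, 10 were at least 2-fold higher with RU486 and 1 at least 2-fold lower. Over all 4884 genes, 4.38% were higher and 4.40% lower. The median log2 ratio of the list was 1.96. The rule of 10 FPKM admitted 8 of the 13 through the RU486 library only, and over the 28 genes at 1 FPKM or more the median was 1.17. The Jonah serine proteases led. Jon99Fii had 83.6 FPKM with RU486 and 2.66 FPKM without it, a 31.5-fold ratio (18.1 to 59.5). Jon25Biii had 115.2 FPKM with RU486 and 3.96 FPKM without it, a 29.1-fold ratio (18.02 to 50.5). Jon99Cii had 138 FPKM with RU486 and 8.60 FPKM without it. The trypsin zetaTry was the exception, with 0.421 FPKM with RU486 and 12.1 FPKM without it. In WT adults all 13 were at least 2-fold lower with RU486, where 3.73% of the 4776 genes were. That WT count rests on the library without RU486, in which alphaTry alone reached 1674 FPKM, against 11.8 FPKM in the WT RU486 library and 31.3 and 13.6 FPKM in the PGAM5 null libraries with and without RU486. The gut amidases PGRP-SC1a, PGRP-SC1b and PGRP-SC2, which degrade bacterial peptidoglycan, were 44.4-fold, 15.2-fold and 5.84-fold higher with RU486 in PGAM5 null adults. The first rested on 1 estimated fragment without RU486, and its interval ran between 8.26 and 1954. Their 2 highest adult values were also those of the PGAM5 null RU486 library and the WT library without RU486, and the part of gut tissue in these ratios was not tested.

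**Figure D3:**
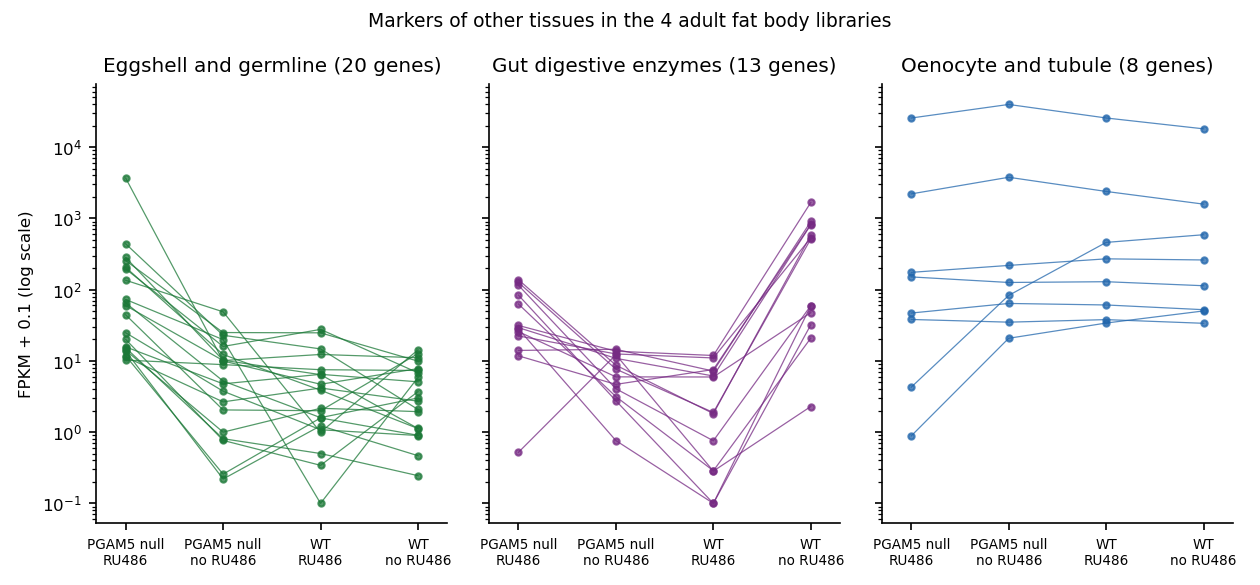
FPKM plus 0.1 on a log scale for the members of the eggshell and germline, gut digestive enzyme, and oenocyte and Malpighian tubule lists, with 1 line a gene and the 4 adult libraries in columns. Eggshell genes peak in the PGAM5 null RU486 library (Cp15 at 3683 FPKM), and the 2 lowest tubule lines at the left are Uro and Irk3. Of all 39 listed gut enzyme genes, 32 are highest in the WT library without RU486 (alphaTry at 1674 FPKM) and 5 in the PGAM5 null RU486 library. Jon25Biii, Jon99Fi and Jon99Fii peak in the latter, for Jon99Fii at 83.6 against 59.2 FPKM in the WT library without RU486.

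Of 8 oenocyte and Malpighian tubule genes, 2 were at least 2-fold lower and 0 at least 2-fold higher, with a median log2 ratio of -0.54, where 4.40% of all 4884 genes were lower. Uro (urate oxidase), which is made in the tubule, had 4.17 FPKM with RU486 and 82.8 FPKM without it, a ratio of 0.0504 (0.0332 to 0.0737). The inward rectifier potassium channel gene Irk3 had 0.785 FPKM with RU486 and 20.7 FPKM without it. Both were high in WT adults, with 460 and 589 FPKM of Uro and 33.9 and 50.1 FPKM of Irk3 in the WT libraries with and without RU486. The PGAM5 null RU486 library was thus low among the 4. The 6 other members of the oenocyte and tubule list had ratios of 0.584 to 1.20. Cyp4g1, the oenocyte enzyme of cuticular hydrocarbon synthesis, had 25634 FPKM with RU486 and 39742 FPKM without it. The P450 reductase gene Cpr had 2207 FPKM with RU486 and 3776 FPKM without it.

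Of the 20 lowest ratios 15 belonged to longer genes, and 13 of the 15 were at 2-fold or more of the PGAM5 null RU486 level in both WT libraries. The genes were chosen for a low PGAM5 null RU486 level, so this count is largely set by that choice and nothing is read from it. NaPi-T, a sodium-dependent phosphate transporter, had 0.465 FPKM with RU486 and 30.2 FPKM without it, against 124 FPKM in the WT RU486 library and 155 FPKM in the WT library without RU486. The mucin-type gene Muc11A had 2.66 FPKM with RU486 and 249 FPKM without it, a ratio of 0.0107 (0.00842 to 0.0134), and Mur18B had 13.0 FPKM with RU486 and 699 FPKM without it. CG14963 had 0.214 FPKM with RU486 and 80.5 FPKM without it, which is 1 estimated fragment against 403. Send1, a protease of the spermatheca, had 0.928 FPKM with RU486 and 61.6 FPKM without it. CG17475 and CG8774 were the 2 of the 15 outside that count, with 0.171 and 0.203 FPKM in the WT RU486 library. The part of tubule and reproductive tract tissue in the lower genes was not tested.

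The WT libraries were set beside the 339 longer genes past 2-fold. The genes were chosen on the PGAM5 null pair, so where its libraries stand among the 4 is in part set by that choice, and nothing is read from it. Both WT libraries were at 0.5 or less of the PGAM5 null RU486 level for 75 of the 141 higher genes, and at 2-fold or more of it for 124 of the 198 lower genes. Of the 4776 genes, 1.09% were at least 2-fold higher and 3.73% at least 2-fold lower with RU486 in WT adults. Of the 198 lower genes, 75 were also at least 2-fold lower there. Of the 141 higher genes, 17 were at least 2-fold higher there and 41 at least 2-fold lower. Over its own 5239 genes at 10 FPKM or more, the WT pair had 87 genes (1.66%) at least 2-fold higher and 452 (8.63%) at least 2-fold lower with RU486.

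**Figure D4:**
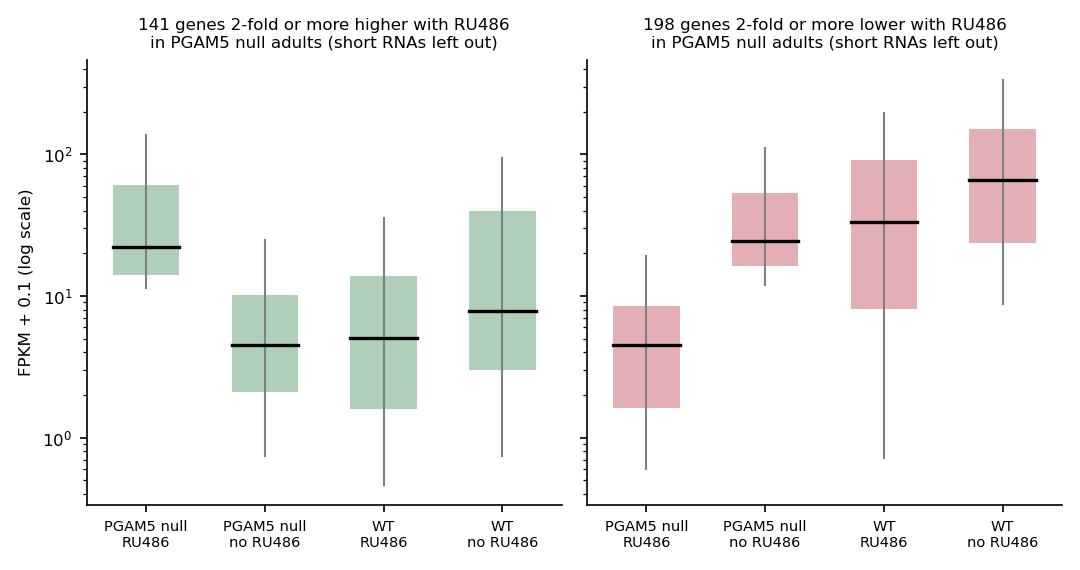
FPKM plus 0.1 on a log scale in the 4 adult libraries for the 141 longer genes at least 2-fold higher and the 198 at least 2-fold lower with RU486 in PGAM5 null adults, with the median as a black line, the quartiles as a box and the 10th to 90th percentile as a grey line. The genes were chosen on the 2 left columns of each panel. The lower genes have a median of 4.44 FPKM in the PGAM5 null RU486 library, against 24.4 FPKM without RU486 and 33.2 and 65.3 FPKM in the WT libraries with and without RU486.

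Immune genes had no single direction. Antimicrobial peptides are secreted by the fat body into the hemolymph under the Imd and Toll pathways. Of 11 members, 1 was at least 2-fold higher and 2 at least 2-fold lower, where 4.38% and 4.40% of all 4884 genes were. Their median log2 ratio of 0.05 became -0.47 when genes of 1 FPKM or more were taken. Dpt (Diptericin) had 24.5 FPKM with RU486 and 9.51 FPKM without it, a ratio of 2.58 (1.504 to 4.59), and its neighbour DptB had 133 FPKM with RU486 and 70.2 FPKM without it, a ratio of 1.89 (1.51 to 2.37). The gene dro5, of the drosomycin family, had 3.51 FPKM with RU486 and 17.2 FPKM without it, a ratio of 0.204 (0.0511 to 0.607). CecC (Cecropin C) had 3.15 FPKM with RU486 and 14.68 FPKM without it. Both lower genes rested on 4 estimated fragments in the RU486 library.

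The abundant antifungal peptides Drs (Drosomycin) and Mtk (Metchnikowin) were lower by less than 2-fold. Drs had 328 FPKM with RU486 and 607 FPKM without it, and Mtk had 202 FPKM with RU486 and 329 FPKM without it. Dro (Drosocin) had 106 FPKM with RU486 and 67.2 FPKM without it. AttA had 13.9 FPKM with RU486 and 9.43 FPKM without it. AttC had 49.7 FPKM with RU486 and 74.1 FPKM without it. Def (Defensin) had 23.6 FPKM with RU486 and 22.7 FPKM without it. AttB had 10.1 FPKM with RU486 and 8.49 FPKM without it. The intervals of AttA (0.951 to 2.30) and AttB (0.746 to 1.91) include 1.

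Of 16 immune-induced molecules, short secreted peptides, 13 had a ratio above 1, as did 2205 of all 4884 genes. At least 2-fold higher was 1 of the 16, where 4.38% of all genes were. CG5791 had 307 FPKM with RU486 and 111 FPKM without it, a ratio of 2.77 (2.44 to 3.15), and 37.4 and 40.5 FPKM in the WT libraries with and without RU486. Of 28 Imd and Toll pathway components, 3 were at least 2-fold higher, where 4.38% of all 4884 genes were. These 3 components were the PGRP-SC genes above. The kinase complex gene key (kenny) was at the limit on the lower side, with 25.3 FPKM with RU486 and 50.6 FPKM without it, a ratio of 0.4996 (0.420 to 0.595). Of the 6 Turandot and JAK/STAT members, TotX had 8.395 FPKM with RU486 and 17.0 FPKM without it, and the stress peptide TotA had 107 FPKM with RU486 and 152 FPKM without it.

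Signalling and metabolic lists moved little in PGAM5 null adults. None of 23 genes of the insulin and FoxO axis and none of 9 JNK pathway genes was 2-fold higher or lower, with median log2 ratios of -0.13 and -0.02. The JNK phosphatase gene puc (puckered), a readout of that pathway, had 13.98 FPKM with RU486 and 17.8 FPKM without it, a ratio of 0.787 (0.657 to 0.941). ImpL2, a secreted binder of insulin-like peptides, had 247 FPKM with RU486 and 311 FPKM without it, a ratio of 0.794 (0.748 to 0.843). The autophagy receptor gene ref(2)P, the fly p62, had 347 FPKM with RU486 and 518 FPKM without it, a ratio of 0.669 (0.645 to 0.694). Each of these was lower beyond counting error and by less than 2-fold.

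None of 16 glycolysis genes, 20 TCA cycle genes, 51 oxidative phosphorylation genes and 73 mitochondrial ribosomal protein genes was 2-fold higher or lower. Their median log2 ratios were 0.14, -0.02, 0.05 and 0.12, and the medians of the JNK and TCA cycle lists turned positive when the libraries were scaled to their median ratio. A ratio below 1 was held by 2679 of all 4884 genes. Of 33 proteasome subunit genes 31 had a ratio below 1, with a median of -0.19, and none was 2-fold lower. Pros35 had 120 FPKM with RU486 and 160 FPKM without it, a ratio of 0.751 (0.678 to 0.831). Of 20 genes of fatty acid synthesis and storage 16 had a ratio below 1. Fatp, a fatty acid transporter, had 193 FPKM with RU486 and 327 FPKM without it. The cytochrome P450 list held 45 genes and by symbol also took the cyclophilin gene Cyp1. Of the 45, 5 were at least 2-fold lower, where 4.40% of all 4884 genes were, and 33 had a ratio below 1. Cyp304a1 had 46.4 FPKM with RU486 and 111 FPKM without it, and Cyp6w1 had 31.1 FPKM with RU486 and 71.8 FPKM without it.

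Single enzymes and hormones departed from their lists. CG6188, the glycine N-methyltransferase of the fat body, had 54.5 FPKM with RU486 and 9.45 FPKM without it, a 5.77-fold ratio (4.26 to 7.93). In WT adults its values were 44.1 FPKM with RU486 and 39.7 FPKM without it, so that the PGAM5 null library without RU486 was the low one of the 4. Sod3, the extracellular superoxide dismutase, had 74.4 FPKM with RU486 and 19.1 FPKM without it, a 3.89-fold ratio (3.15 to 4.79). The peroxidase Pxt, which acts in follicle cells, had 26.2 FPKM with RU486 and 4.005 FPKM without it. The alpha-glucosidase gene tobi, a target of insulin and adipokinetic hormone signalling, had 79.3 FPKM with RU486 and 32.3 FPKM without it. The adipokinetic hormone gene Akh, made in the corpora cardiaca and not in fat, was listed at 0 FPKM with RU486 and at 18.6 FPKM without it, and at 7.87 and 5.96 FPKM in the WT libraries with and without RU486. The odorant-binding gene Obp44a was listed at 17.4 FPKM with RU486 and at 0 without it.

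Further marker lists bear on the makeup of the pair. Of 18 muscle genes, Act79B had 15.8 FPKM with RU486 and 53.5 FPKM without it and TpnC41C had 4.74 FPKM with RU486 and 16.2 FPKM without it, while the list summed to 2503 FPKM with RU486 and 2801 FPKM without it. The 20 hemocyte genes summed to 787 FPKM with RU486 and 715 FPKM without it, and 0 of their 14 members were 2-fold apart. Of 15 tetraspanins, membrane scaffold proteins, 4 were at least 2-fold lower, where 4.40% of all genes were, and 1 at least 2-fold higher, where 4.38% were. The lower ones were led by Tsp29Fb with 15.8 FPKM with RU486 and 77.7 FPKM without it, and the higher one was Tsp74F with 22.2 FPKM with RU486 and 11.0 FPKM without it. The 4 lower genes were also at least 2-fold lower in WT adults, where the library without RU486 held the gut enzymes. Of 27 genes on the male list, 21 were listed at 0 with RU486 and 20 without it, and the list summed to 28.3 and 8.25 FPKM. Its 1 member at 10 FPKM or more, Pen, had 22.2 FPKM with RU486 and 4.06 FPKM without it. Pen made up most of the sum with RU486. It also had 42.1 and 50.4 FPKM in the larval PGAM5 null libraries with and without RU486. The sum is therefore not read as a male signal.

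In larval fat body of the same genotype, sampled while RU486 was given, the inducible Hsp70 family had a median log2 ratio of -0.08 over the same genes. Hsp68 had 33.7 FPKM in the larval PGAM5 null RU486 library and 33.2 FPKM in the larval PGAM5 null library without RU486. The small heat shock proteins had a larval median of -0.70, with 119 FPKM of Hsp23 with RU486 and 3704 FPKM without it. The antimicrobial peptides, at 0.05 in the adults, had a larval median of 2.05, with 1418 FPKM of Dpt with RU486 and 343 FPKM without it. The larval values come from a separate table, so apart from the Yp1 levels above, only ratios within each table are set side by side.

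**Figure D5:**
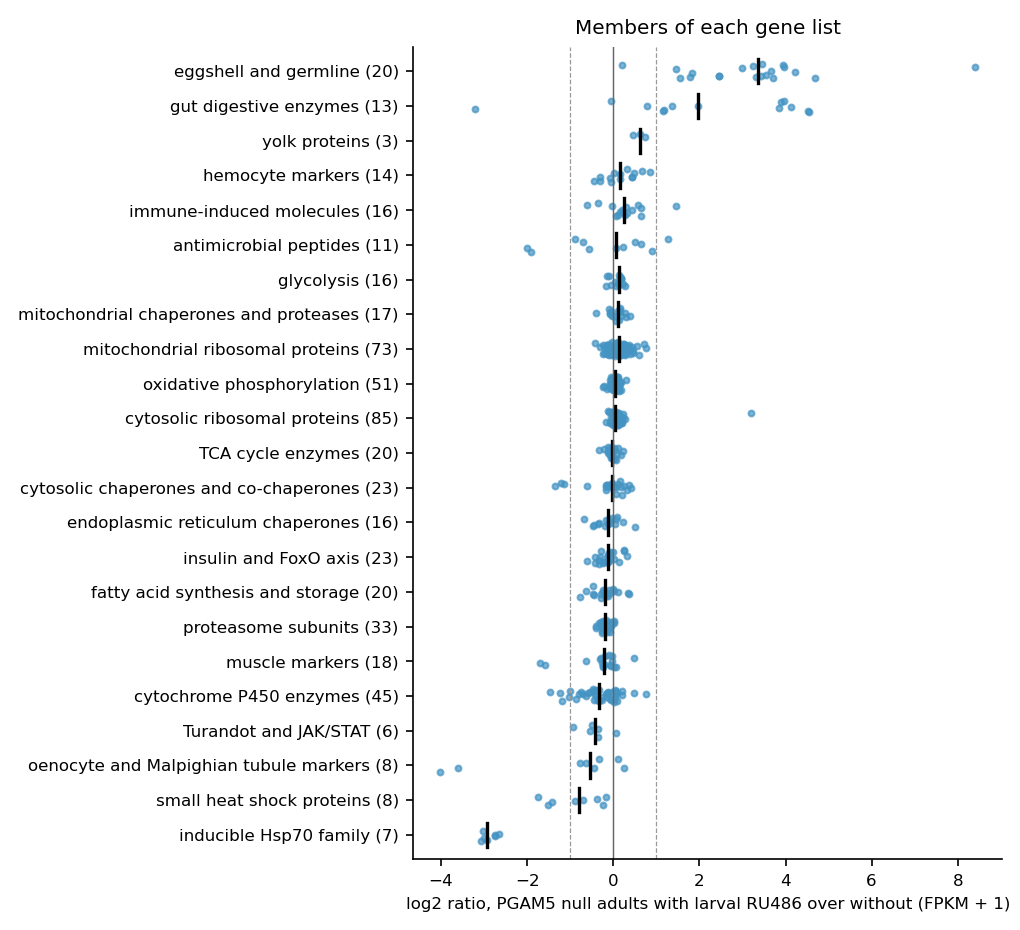
Log2 ratio of PGAM5 null adults with larval RU486 over those without, on FPKM + 1, with 1 point for each gene at 10 FPKM or more, a black tick at each list's median and the number of genes in parentheses. Dashed lines mark 2-fold, and the medians run between 3.37 for eggshell and germline genes and -2.93 for the inducible Hsp70 family, with most lists close to 0.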

How the data were processed

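Fat body RNA was sequenced by the authors on a MiSeq from TruSeq libraries and processed with Bowtie, TopHat and Cufflinks, named in the submitters' processing notes without versions, on Drosophila genome release 5.2. The authors deposited gene-level FPKM values, which are normalized to transcript length and library size. Strand use in counting is not stated in the sources used here, so overlapping and antisense genes cannot be told apart. No sequence or coordinate is given.

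Ratios were taken between FPKM as deposited where at least 1 library of the pair reached 10 FPKM, and called at 2-fold. List medians used log2(FPKM + 1). With 1 library a condition, no test was run and no p-value is given. The number of fragments in each library was derived from the spacing of the smallest FPKM values of genes with 1 transcript, with lengths from the Ensembl 115 annotation, to which 14927 of 15603 genes matched by FlyBase identifier. Between 82.6% and 85.5% of values below 5.5 estimated fragments lay within 0.1 of a whole number in the PGAM5 null adult libraries. Exact binomial (Clopper-Pearson) intervals at 95% came from these estimates for 4571 genes, with the median length of genes with several transcripts, and the step was tested on simulated data. The rule for naming genes took the 20 highest and 20 lowest ratios, up to 4 a list and 4 lists in full. Many genes in the text fall outside it, among them osk, orb, CycB, gcl, Hsf, Hsc70-4 and the TRiC subunits. Others outside it are Jon99Cii, zetaTry, alphaTry and Tsp74F. All such genes were picked with the results already in view and serve as illustration only. The rule also held a set of genes credited to the study that its text does not list, and that set was not used. Of the entries of 45 lists, 11 symbols matched no gene. The members and lists were chosen with earlier results of these data known. Python 3.11.15, pandas 2.3.3 and scipy 1.17.1 were used. Alternatives covered the minimum FPKM, the fold, the pseudocount, the scaling, the counting interval and the gene classes counted.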

Additional observations from a re-analysis of the deposited data

Results flagged for a closer look

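The inducible Hsp70 family went opposite ways in the 2 genotypes. Its median log2 ratio, larval RU486 over none, was -2.93 in PGAM5 null adults and 3.61 in WT adults, a difference of -6.55 between the medians, and each of the 7 genes was at least 2-fold lower in the PGAM5 null pair and at least 2-fold higher in the WT pair. The difference was not tested, since each condition was 1 library, and 6 of the 7 genes are near-identical Hsp70 copies.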

How the results depend on the processing

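The count of 214 genes at least 2-fold higher became 54 when 10 FPKM was required without RU486 or in both libraries, 507 with no minimum and a pseudocount of 1, 137 when the counting interval also had to leave out 1, which short RNAs cannot meet because they have no interval, and 141 without short RNAs, an alternative chosen after seeing the data. The count of 215 genes at least 2-fold lower became 43 when 10 FPKM was required in both libraries and 426 with no minimum and a pseudocount of 1. The other alternatives, a minimum of 5 FPKM, a 3-fold limit, a pseudocount of 1, scaling to the median ratio (a shift of 0.03 on the log2 scale) or the upper quartile (0.06) and leaving out markers of other tissues, gave 152 to 309 higher and 165 to 297 lower genes. Medians of 7 of the 45 lists crossed 0 under at least 1 alternative, and no list or named gene past 2-fold turned its direction. Of 225 alternative list medians 24 left the list's own 95% interval of the median. Counting error was the only error that could be estimated, and 4 or fewer fragments lay behind several of the lowest values. No paired analysis was possible because each condition was 1 library and the result comes from no test.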
